A study of Mus musculus with 2 samples.

Results

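The genes described here are the myosin heavy chains (*Myh*) and the unconventional myosins (*Myo*) of the mouse, the motor proteins that move along actin filaments. They were taken as every row of the deposited expression table whose symbol is *Myh* or *Myo* followed by a number and at most 1 letter, which gave 39 of 22156 genes. Cartilage cells of newborn mice, from rib cartilage in the labels and from rib and articular cartilage in the study's methods, were grown as a monolayer in DMEM/F12, and RNA sequencing was done on 1 control library and 1 *Myl3*-KO library. In *Myl3*-KO mice both *Myl3* alleles are floxed and Cre recombinase is driven by the *Col2a1* promoter, so the deletion depends on cells that have used this promoter. The controls are floxed littermates in the study's methods, and the sample labels give their genotype as WT. The comparison asks how transcript levels differ between the cells of *Myl3*-KO mice and those of controls. *Myl3* encodes an essential light chain that binds to the heavy chain of cardiac and slow skeletal muscle myosin. With 1 library per genotype no difference given here has a replicate check.

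A myosin heavy chain has a motor head that hydrolyses ATP, a neck that binds light chains or calmodulin, and a tail that sets what the motor carries or assembles into. Class II myosins pair through coiled-coil tails and form filaments, as thick filaments in the sarcomeres of muscle and as short bipolar filaments of the non-muscle isoforms along the stress fibres of most other cells. The unconventional classes link membranes, vesicles and adhesion structures to actin, and myosin VI, the product of *Myo6*, is known for moving towards the minus end of the filament, opposite to the other classes, and for its part in endocytosis.

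*Myl3* itself had 0 counts in both libraries, the control included. The libraries thus show no difference in its transcript, and it cannot serve as a check of the labels. Expected counts summed to 17612434.91 (control) and 13477976.98 (*Myl3*-KO), and a floor of 3 counts equals 0.170 and 0.223 CPM at these depths (counts scaled to the library total). Of 11 chondrocyte markers, 10 were in the table, and *Acan*, *Matn1*, *Matn3* and *Hapln1* were at 0 in both libraries. *Col2a1* had 30 and 27 counts. *Sox9*, the cartilage transcription factor, went from 866 to 480 counts (log2 ratio of CPM -0.47), and *Col11a2* from 293 to 395 (log2 ratio 0.82). The label of primary chondrocytes is therefore not borne out by the defining matrix genes. Summed over the list, chondrocyte markers stood at 67.7 CPM (control) and 67.2 CPM (*Myl3*-KO), and fibroblast markers at 12935 and 15024 CPM, of which *Col1a2* alone made up 12017 and 14039. Of the 7 fibroblast markers, *Pdgfra* was past both limits given below and higher (120 and 140 counts, log2 ratio 0.61), *Dcn* (631 and 155, -1.64) and *Lum* (272 and 81, -1.36) were past them and lower, and *Thy1* was at 0. Lists of immune, endothelial, erythroid, epithelial and melanocyte markers each summed to between 0 and 2.22 CPM in the control and between 0.0742 and 2.45 CPM in *Myl3*-KO, and neural markers to 13.2 and 15.4 CPM.

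The stretches of promoter below show the sequence upstream of 4 of these genes that differ in level. *Myh9* was the most abundant member, *Myo6* encodes the myosin that binds endocytic adaptors, *Myo7a* showed the largest ratio between the libraries among the myosins tested, and *Myh4*, a fast skeletal muscle heavy chain, had no counts. Each is the 250 bases before the start of the gene in RefSeq on GRCm38.p6, written 5′ to 3′ on the strand of the gene, with CG pairs in capitals. They lie at chr15:77842176-77842425 on the minus strand (*Myh9*), chr9:80164784-80165033 on the plus strand (*Myo6*), chr7:98119494-98119743 on the minus strand (*Myo7a*) and chr11:67237562-67237811 on the plus strand (*Myh4*).
Myh9: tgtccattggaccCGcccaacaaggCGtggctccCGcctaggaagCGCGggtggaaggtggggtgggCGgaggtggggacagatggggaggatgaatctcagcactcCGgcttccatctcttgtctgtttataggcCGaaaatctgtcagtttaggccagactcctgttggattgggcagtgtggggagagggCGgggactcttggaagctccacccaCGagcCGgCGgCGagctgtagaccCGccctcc
Myo6: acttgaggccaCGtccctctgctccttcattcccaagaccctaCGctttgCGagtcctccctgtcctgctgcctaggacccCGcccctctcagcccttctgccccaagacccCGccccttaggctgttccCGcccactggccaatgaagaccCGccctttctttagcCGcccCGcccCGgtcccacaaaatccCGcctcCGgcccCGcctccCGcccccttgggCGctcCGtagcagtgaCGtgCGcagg
Myo7a: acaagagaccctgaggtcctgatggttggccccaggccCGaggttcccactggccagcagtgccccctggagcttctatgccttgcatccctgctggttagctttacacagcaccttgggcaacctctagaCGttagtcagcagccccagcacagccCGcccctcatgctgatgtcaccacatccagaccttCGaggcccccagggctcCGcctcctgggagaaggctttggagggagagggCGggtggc
Myh4: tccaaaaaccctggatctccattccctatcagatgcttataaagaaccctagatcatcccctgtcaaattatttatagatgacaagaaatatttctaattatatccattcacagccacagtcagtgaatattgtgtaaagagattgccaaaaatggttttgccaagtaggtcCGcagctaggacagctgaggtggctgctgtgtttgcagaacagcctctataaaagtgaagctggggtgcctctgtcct

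A promoter was found for 33 of the 39 genes. The CG pairs were compared with the number that the C and G content of each stretch would give, as the observed over expected ratio. This ratio was 0.59 for *Myh9* with 14 CG pairs, 0.74 for *Myo6* with 18, 0.24 for *Myo7a* with 6 and 0.091 for *Myh4* with 1. Among the 12 genes with a promoter and at least 1 FPKM in both libraries (FPKM scales reads by the length of the gene and by the library), the median ratio was 0.70 and 8 reached 0.6. Among the other 21 the median was 0.24 and 2 reached 0.6, *Myo16* and *Myo5c*, and of all 32841 promoters 34.0% did. The myosins expressed at this level thus mostly had CG-rich promoters and the others mostly did not. Those of this level that fell short of 0.6 were *Myh9* (0.59), *Myo1h* (0.45), *Myo18a* (0.28) and *Myo1c* (0.097). For *Myo18a* the RefSeq start lies 13989 bases from that of GENCODE, so its window describes only 1 of its starts. For *Myh13*, among the others, the starts lie 5445 bases apart.

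The letters TATAAA were searched on both strands in the last 50 bases before the start. They were found in 3 of the 33 promoters, those of *Myh1*, *Myh3* and *Myh4*, beginning 32, 29 and 31 bases before the start, and in 3.5% of all promoters. The CArG box, the motif bound by serum response factor, was searched on both strands over the whole 250 bases. It was found in *Myh4* and *Myo1e*, and in 1.47% of all promoters, with no overlap with TATAAA in either gene. These matches describe the letters only.

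The 39 genes together held 0.240% of the counts of the control library (42187 counts, 95% Clopper-Pearson interval 0.237 to 0.242) and 0.276% of those of *Myl3*-KO (37180 counts, 0.273 to 0.279). In bulk libraries such as these, fewer cells of a type and less RNA per cell cannot be told apart. These intervals, and all others below, are 95% intervals that cover counting error only. Of the 39 genes, 14 stood at 1 FPKM or more in both libraries. Their order was led by *Myh9*, *Myh10*, *Myo1c* and *Myo5a*, which made up 61.9% of the summed FPKM of the family in the control and 61.7% in *Myl3*-KO. The plot of levels by gene shows this order, and the plot of the make-up gives the share of each gene.

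**Figure D1:**
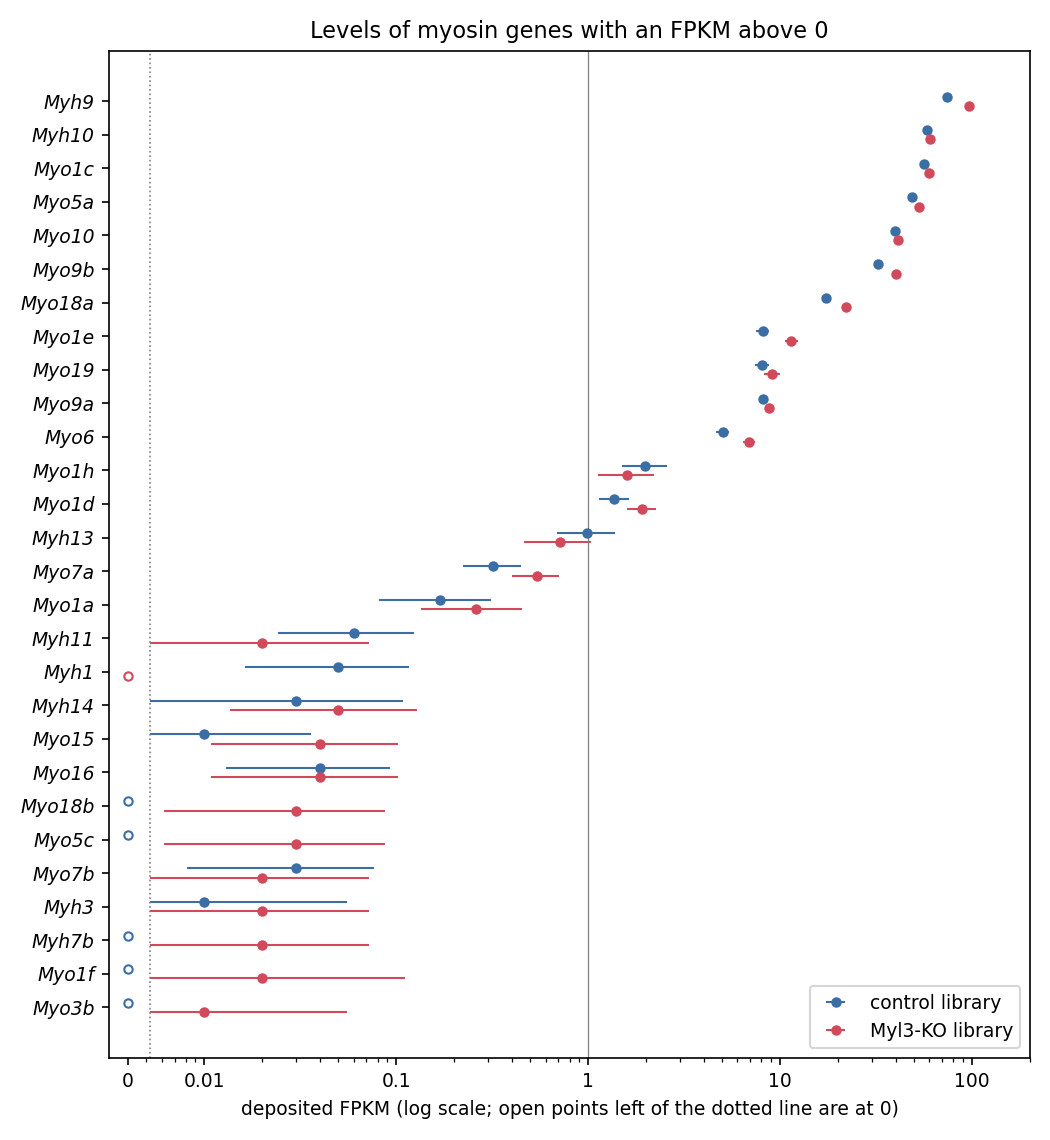
Deposited FPKM of myosin genes above 0 in at least 1 library, on a log scale, in the control (blue) and *Myl3*-KO (red) library, with 95% counting intervals that are clipped at the dotted line and open points at 0. The levels run from 74.5 and 96.9 FPKM for *Myh9* down to single counts, and of the genes shown above 1 FPKM in both libraries all but *Myo1h* have the red point to the right of the blue one.

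Between neighbours in this order the levels per length did not always differ beyond counting error. In the control, *Myh10* (58.0 FPKM) and *Myo1c* (56.5 FPKM) had overlapping intervals, as had *Myo9a* (8.16), *Myo1e* (8.11) and *Myo19* (8.04), then *Myo1h* (1.97) and *Myo1d* (1.37). In *Myl3*-KO, *Myh10* (60.7 FPKM) and *Myo1c* (59.7 FPKM) overlapped again, and so did *Myo10* (41.0) and *Myo9b* (40.3), which were apart in the control at 39.8 and 32.6 FPKM. *Myo1e* stood apart from *Myo19* in *Myl3*-KO, at 11.5 against 9.12 FPKM. The order also depends on the length used for each gene. For *Myo1h* the length implied by counts and FPKM was 1601 bases (control) and 1722 (*Myl3*-KO), against 4631 for its longest transcript. By counts in the control it stood below *Myo1d*, at 55.54 against 129. For *Myo5a* the implied length was 4228 and 4307 bases, against 11702.

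**Figure D2:**
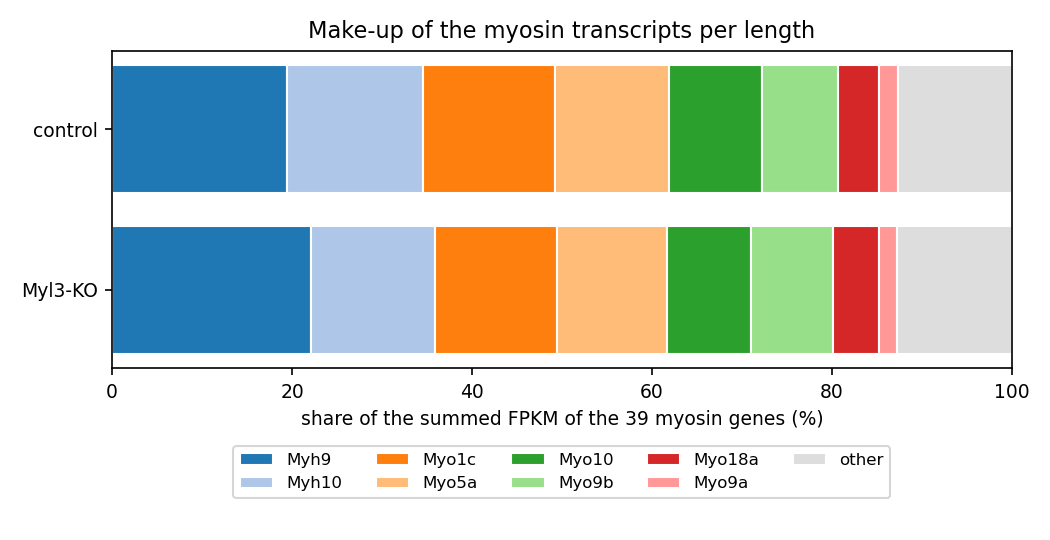
Share of the summed FPKM of the 39 myosin genes (x axis, %) held by 8 abundant genes and by the others, in the control (top bar) and *Myl3*-KO library (bottom bar). The sums are 383.6 and 438.8 FPKM, and the non-muscle heavy chains hold 34.5% and 35.9% of them.

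The difference between the libraries was given as the log2 ratio of CPM, *Myl3*-KO over control, and was tested, where both libraries together had 10 counts or more, by a two-sided exact binomial test of the rounded counts, adjusted by Benjamini-Hochberg over the 12431 genes tested. This test compares the reads of the libraries and not the genotypes. Of the 39 myosins, 17 had enough counts. At an adjusted p under 0.05 and at least 1.5-fold, 1 of the 17 was higher in *Myl3*-KO, against 3.14% of all genes tested, and 0 were lower, against 0.925% (4.06% in either direction). With no limit on the fold, 10 of the 17 were higher, against 18.6% of all genes, and 0 were lower, against 16.8% (35.4% in either direction). Passing this test depends on the number of counts. Of the 17 myosins 13 had at least 100 counts, and genes were tested from 10 counts over both libraries. The shares of all genes, here and below, are not matched for counts. The ratio was above 0 for 15 of the 17 and for 52.7% of all genes tested, and the median log2 ratio was 0.17 for the myosins and 0.02 for all genes.

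These ratios moved with the length and base composition of the transcripts across the whole table. The 17 myosins had a median longest transcript of 7297 bases, against 3464 bases for all genes tested, and 13 of them were in the top of 4 equal bins by length. The 433 genes in the top bin of both length and GC content had a median log2 ratio of 0.25, and *Myh9*, *Myo9b*, *Myo18a*, *Myo19* and *Myo7a* were among them. The 1027 genes in the top bin of length and the bottom bin of GC content had a median of -0.04, with *Myo6* and *Myo9a* among them. Length here is that of the longest transcript, which for some members, *Myo5a* and *Myo19* among them, exceeded the length implied by counts and FPKM. When the median of the genes in the same of 10 bins by length and of 10 by GC content was subtracted, a step chosen after seeing the data, the median of the myosins was 0.05 and 10 of 17 were above 0. The part of length and base composition in the sequencing of these libraries was not tested beyond this.

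**Figure D3:**
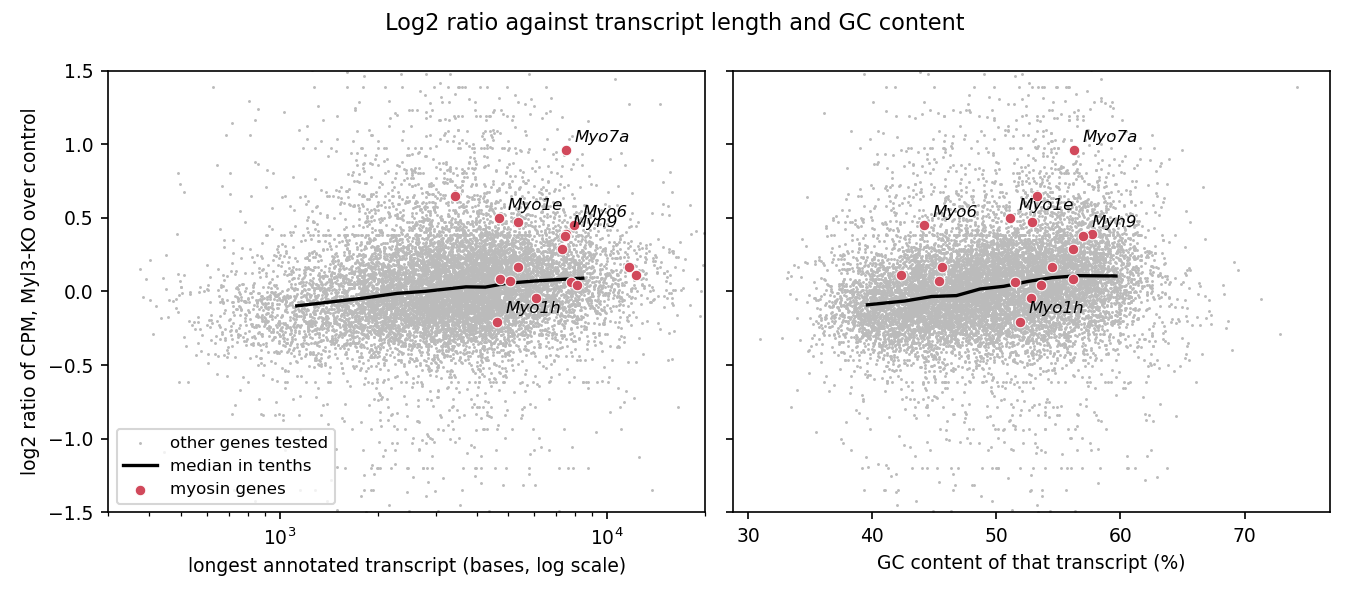
Log2 ratio of CPM, *Myl3*-KO over control, for every gene tested against the length of its longest transcript (left, log scale) and the GC content of that transcript (right), with the axis ending 1.5 to either side of 0. The black line, the median in 10 equal bins along the x axis, rises with both, the red myosin genes lie mostly among long transcripts, and *Myo6* lies above the line at a GC content of 44.2%.

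Among the non-muscle heavy chains, which form the contractile filaments of cells outside muscle, *Myh9* was higher in *Myl3*-KO and *Myh10* nearly level. *Myh9* (ENSMUSG00000022443, chromosome 15 from 77760587 to 77842175, 41 exons), the heavy chain of non-muscle myosin IIA, had 9751 counts (554 CPM) in the control against 9706 (720 CPM) in *Myl3*-KO. Its log2 ratio was 0.38 (0.34 to 0.42; adjusted p = 2.67e-72, exact binomial test). *Myh10* (ENSMUSG00000020900, chromosome 11 from 68691559 to 68816632), the heavy chain of myosin IIB, had 452 and 473 CPM, a log2 ratio of 0.07 (0.02 to 0.11; adjusted p = 0.023), which was -0.12 after the subtraction for length and GC content. The ratio of *Myh9* after this subtraction was 0.04. *Myh14*, the heavy chain of myosin IIC, had 2 and 4 counts.

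The balance of the isoforms can be read within each library, where the library total plays no part. *Myh9* held 55.1% of the counts of the 3 non-muscle genes in the control (54.3 to 55.8) and 60.4% in *Myl3*-KO (59.6 to 61.1). The intervals do not overlap. The log2 ratio of *Myh9* exceeded that of *Myh10* by 0.31 (0.25 to 0.38), and by 0.17 after the subtraction for length and GC content. The counts of both genes had decimals, and the decimals of the pair added to a whole number in each library, 17704 (control) and 16075 (*Myl3*-KO) within a tolerance of 0.005. *Myh10* added to a whole number with 15 genes in the control and with 21 in *Myl3*-KO, *Myh9* being among them both times. Of the stretches of 31 bases in the transcripts of *Myh9*, 0.77% are also found in those of *Myh10*. The sum of the pair had a log2 ratio of 0.25 (0.22 to 0.28).

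**Figure D4:**
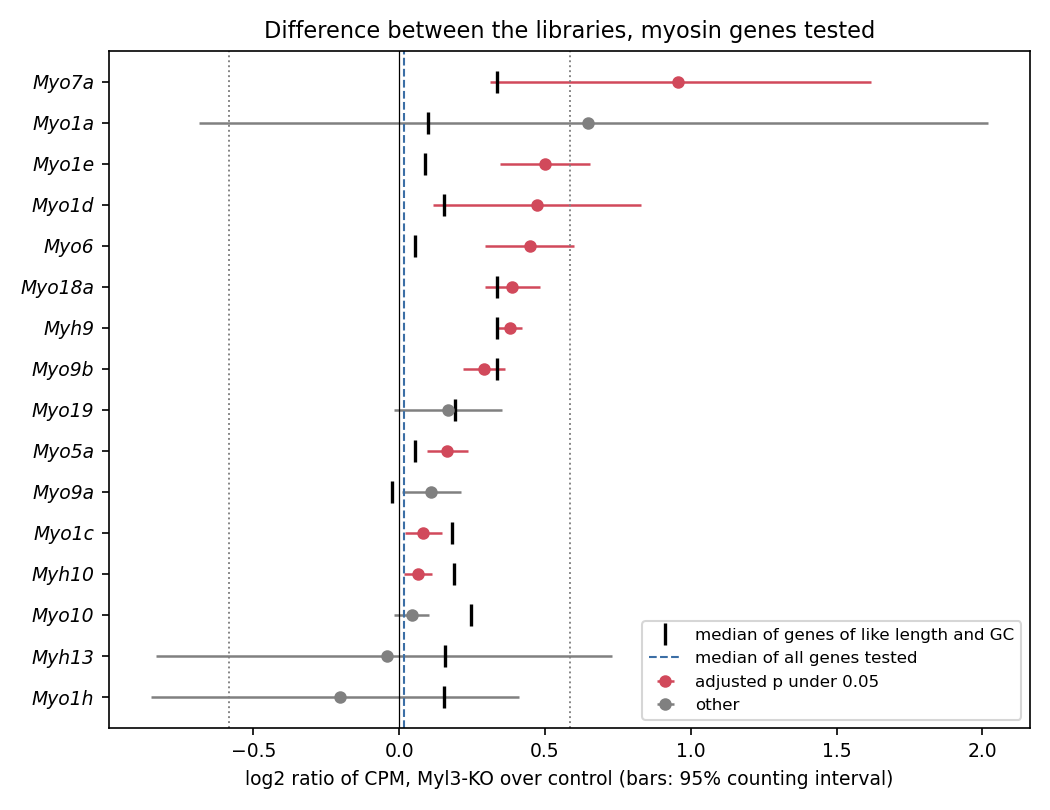
Log2 ratio of CPM, *Myl3*-KO over control, of myosin genes tested, with 95% counting intervals, in red where the adjusted p was under 0.05. Black ticks mark the median of genes of like length and GC content, the dashed line the median of all genes tested and the dotted lines 1.5-fold. The intervals of *Myo1e*, *Myo6*, *Myo5a*, *Myo9a* and, narrowly, *Myh9* lie to the right of their ticks, those of *Myh10*, *Myo1c* and *Myo10* to the left.

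Muscle heavy chains were close to absent. Of the 10 sarcomeric genes, *Myh2*, *Myh4*, *Myh6*, *Myh7*, *Myh8* and *Myh15* had 0 counts in both libraries, which includes the cardiac alpha (*Myh6*) and the slow and cardiac beta (*Myh7*) chains. *Myh6* and *Myh7* encode the kinds of heavy chain that the *Myl3* light chain binds. *Myh1* had 5 counts and 0, *Myh3*, the embryonic chain, 1 and 2, and *Myh7b* 0 and 2. The smooth muscle chain *Myh11* had 7 and 2. A count of 0 allows up to 0.170 CPM (control) or 0.223 CPM (*Myl3*-KO). Many stretches of the sarcomeric genes are shared, with 37.9% of the 31-base stretches of *Myh1* and 29.2% of those of *Myh6* found in another gene, and counting that discards or splits such reads would lower them.

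The exception was *Myh13* (chromosome 11 from 67321658 to 67371586), the heavy chain of extraocular muscle, with 35 counts in the control against 26 in *Myl3*-KO. Its levels were 1.99 and 1.93 CPM, and its log2 ratio of -0.04 had an interval from -0.83 to 0.73. On the FPKM scale *Myh13* went from 0.99 to 0.71. The length implied by its counts and FPKM was 2007 bases in the control and 2717 in *Myl3*-KO, against 6062 for its longest transcript, so that its FPKM was divided by a shorter transcript in both libraries. Of 15 skeletal muscle markers 8 were at 0 in both libraries, among them *Des*, *Ckm*, *Myod1* and *Myog*, and the list summed to 2.33 CPM (control) and 1.78 CPM (*Myl3*-KO). The others had few counts, led by *Actn3* with 13 and 5, *Neb* with 11 and 12 and *Ttn* with 8 and 5. Of 6 cardiac markers, *Actc1*, *Nppa* and *Nkx2-5* were at 0, while *Tnnt2*, cardiac troponin T, had 19 and 47 counts (log2 ratio 1.69), and the list summed to 17.4 and 21.3 CPM, mostly *Gata4* (15.7 and 16.7 CPM). Of 7 smooth muscle markers *Myocd* was at 0, and the list summed to 47.6 and 46.7 CPM, nearly all from *Smtn* (37.2 and 36.1 CPM) and *Acta2* (9.77 and 9.42 CPM). The defining markers *Cnn1* (4 and 1 counts), *Tagln* (1 and 2), *Lmod1* (4 and 9) and *Synpo2* (3 and 4) were near 0.

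Class I myosins, single-headed motors that tie membranes to actin, were the most numerous among the genes tested, with 6 of their 8 members. Of the 6, 3 were higher in *Myl3*-KO at an adjusted p under 0.05, against 18.6% of all genes tested. *Myo1c* (chromosome 11 from 75650504 to 75673910) led with 56.5 and 59.7 FPKM. It had 260 and 275 CPM, a log2 ratio of 0.08 (0.02 to 0.15; adjusted p = 0.030, exact binomial test) that was -0.10 after the subtraction for length and GC content. *Myo1e* (chromosome 9 from 70207350 to 70399766), a long-tailed class I myosin that is found at sites of endocytosis, had 661 and 715 counts, which is 37.5 and 53.1 CPM. Its log2 ratio was 0.50 (0.34 to 0.65; adjusted p = 2.46e-09). After the subtraction it was 0.41.

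*Myo1d*, known for setting left-right handedness of organs in flies, had 129 and 137 counts, 7.32 and 10.2 CPM, with a log2 ratio of 0.47 (0.12 to 0.83; adjusted p = 0.025). *Myo1h* had 55.54 and 36.9 expected counts and a log2 ratio of -0.20 (-0.85 to 0.41). Its locus overlaps that of *Kctd10*, and its counts are uncertain. The decimals of the pair added to whole numbers, with 6757.46 counts of *Kctd10* in the control (sum 6813) against 5570.1 in *Myl3*-KO (sum 5607). *Myo1h* added to a whole number with 9 genes in the control and with 14 in *Myl3*-KO, *Kctd10* being among them both times, and whether reads were split between this pair was not tested. *Myo1a*, the brush border myosin, had 10 and 12 counts, *Myo1f* 0 and 1, and *Myo1g*, a myosin of blood cells, 0 and 0.

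Within a class the library totals cancel, and 14 pairs of tested genes were set against each other, with intervals not adjusted for this number. Of these, 5 had an interval that excluded 0. *Myo1e* exceeded *Myo1c* by 0.42 (0.25 to 0.58) and *Myo1h* by 0.71 (0.06 to 1.37) on the log2 scale. The counts of *Myo1h* are uncertain, as said above, and its interval does not cover this. *Myo1d* exceeded *Myo1c* by 0.39 (0.03 to 0.75). *Myo1d* and *Myo1e* differed by 0.03, with an interval from -0.42 to 0.37 for *Myo1d* less *Myo1e*. The remaining pairs were *Myh9* over *Myh10*, given above, and *Myo9b* over *Myo9a*.

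*Myo6* (ENSMUSG00000033577, chromosome 9 from 80165031 to 80311729, 35 exons in its longest transcript) had 5.03 FPKM in the control against 6.90 in *Myl3*-KO. It ranked 8446th and 7844th among the 22156 genes, of which 10676 and 10784 reached 1 FPKM. Among the 39 myosins *Myo6* ranked 12th in both libraries. It had 685 and 715 counts, 38.9 and 53.1 CPM. The log2 ratio was 0.45 (0.29 to 0.60; adjusted p = 9.51e-08, exact binomial test), a 1.36-fold difference that stayed under the 1.5-fold limit. Genes of like length and GC content had a median of 0.05, and the ratio of *Myo6* after its subtraction was 0.39. The whole interval of *Myo6* lay above that median, as did that of *Myo1e*.

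The adaptors that couple myosin VI to its cargo were described beside it. Of 10 in the list 9 were tested, 4 were higher at an adjusted p under 0.05 (18.6% of all genes tested), 0 were lower (16.8%), and the median log2 ratio was 0.03, against 0.02 for all genes. The most abundant were *Tax1bp1* (236 and 241 CPM, log2 ratio 0.03), *Optn* (172 and 176 CPM, 0.03), both receptors of selective autophagy, *Dlg1* (124 and 140 CPM, 0.18) and *Tom1l2* (102 and 102 CPM, 0.00). The higher ones other than *Dlg1*, chosen for their values, were *Calcoco1* (75.9 and 112 CPM, log2 ratio 0.56), *Dab2*, an adaptor of clathrin-coated pits (19.2 and 24.0 CPM, 0.33), and *Tom1* (28.4 and 35.1 CPM, 0.31). *Gipc1*, which joins receptors to myosin VI, had 68.5 and 64.9 CPM.

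Myosin V carries vesicles and melanosomes along actin. *Myo5a* (chromosome 9 from 75071015 to 75223688) had 3605 and 3093 counts, 205 and 229 CPM, with a log2 ratio of 0.17 (0.10 to 0.23; adjusted p = 2.68e-05, exact binomial test) and 0.11 after the subtraction. *Myo5b* was at 0 in both libraries and *Myo5c* had 0 and 3 counts, so *Myo5a* was the myosin V of these cells at this depth. Its implied length was 4228 and 4307 bases against 11702 for its longest transcript, and the subtraction used the longest transcript. Of 13 partners of myosin V 10 were tested, 0 were higher and 2 lower (18.6% and 16.8% of all genes), and the median log2 ratio was -0.05. The most abundant was *Dynll1*, a light chain shared with dynein (262 and 227 CPM, log2 ratio -0.21), followed by *Rab10* (191 and 181 CPM, -0.08), *Dynll2* (157 and 147 CPM, -0.09) and *Rab8a* (114 and 118 CPM, 0.05). The other lower one was *Rab11a*, a GTPase of recycling endosomes, with 111 and 98.8 CPM.

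Class IX myosins carry, beside the motor, a tail domain that acts on small GTPases of the cytoskeleton. *Myo9b* (chromosome 8 from 71272714 to 71360713) had 3294 and 3084 counts, 187 and 229 CPM, a log2 ratio of 0.29 (0.22 to 0.36; adjusted p = 2.93e-14, exact binomial test), which was -0.05 after the subtraction for length and GC content. *Myo9a* had 98.3 and 106 CPM, a log2 ratio of 0.11 (0.01 to 0.21; adjusted p = 0.083). The ratio of *Myo9b* exceeded that of *Myo9a* by 0.18 (0.06 to 0.31), and the subtraction turned this order, to -0.05 against 0.14. The locus of *Myo9b* overlaps that of *Haus8*, and its counts were whole numbers in both libraries.

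*Myo10*, the motor of filopodial tips, had 5351 and 4217 counts, 304 and 313 CPM, and a log2 ratio of 0.04 (-0.02 to 0.10; adjusted p = 0.28, exact binomial test), which was -0.20 after the subtraction. *Myo18a* (chromosome 11 from 77763246 to 77865980), which joins filaments of non-muscle myosin II and lacks strong motor activity, had 1875 and 1878 counts, 106 and 139 CPM. Its log2 ratio was 0.39 (0.30 to 0.48; adjusted p = 6.01e-15, exact binomial test) and 0.05 after the subtraction, so that it stood with *Myh9* near the genes of its own length and GC content. *Myo18b*, its relative in striated muscle, had 0 and 3 counts. *Myo19*, the mitochondrial myosin, had 29.8 and 33.5 CPM and a log2 ratio of 0.17 (-0.02 to 0.35; adjusted p = 0.16) that was -0.023 after the subtraction, and its locus overlaps those of *Pigw* and *Znhit3*.

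*Myo7a* (ENSMUSG00000030761, chromosome 7 from 98051060 to 98119524), the myosin of hair cell stereocilia, was the 1 member past both limits. Its counts were 35 in the control against 52 in *Myl3*-KO, at 0.32 and 0.54 FPKM. Its log2 ratio was 0.96 (0.31 to 1.62; adjusted p = 0.0092, exact binomial test), and the interval includes differences below 1.5-fold. After the subtraction the ratio was 0.62. Of the myosins of stereocilia and microvilli not described above, *Myo7b* had 4 and 2 counts, *Myo15* 2 and 4, *Myo3b* 0 and 1, and *Myo3a* and *Myo15b* were at 0 in both. *Myo16*, a myosin of neurons, had 5 and 4. None of these 6 had enough counts for a test, and the 22 untested members together held 26 counts (control) and 28 counts (*Myl3*-KO).

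The chains that the motors bind were measured beside them. The non-muscle heavy chains summed to 132.5 FPKM in the control and 157.6 in *Myl3*-KO. *Myl6*, the essential light chain outside striated muscle, had 709 and 726 FPKM, 5.35 and 4.61 times the heavy chains. The regulatory chains *Myl12a* and *Myl12b* summed to 406 and 397 FPKM (3.07 and 2.52 times), and the calmodulins to 777 and 712 FPKM. Transcripts of light chains thus outnumbered those of heavy chains per length in both libraries, by less in *Myl3*-KO. These multiples carry no subtraction for length and GC content. After that subtraction the log2 ratios of *Myh9* and *Myh10* were 0.04 and -0.12, so a change in the balance of the chains cannot be read from them. Of 16 light chain and calmodulin genes 11 were tested, 1 was higher and 2 lower (18.6% and 16.8% of all genes), with a median log2 ratio of 0.00. *Myl6* was the higher one (496 and 516 CPM, log2 ratio 0.06), *Calm2* (719 and 654 CPM, -0.14) and *Calm3* (202 and 188 CPM, -0.10) the lower. *Myl1*, *Myl2*, *Myl3*, *Myl7* and *Myl9* were at 0 in both libraries.

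**Figure D5:**
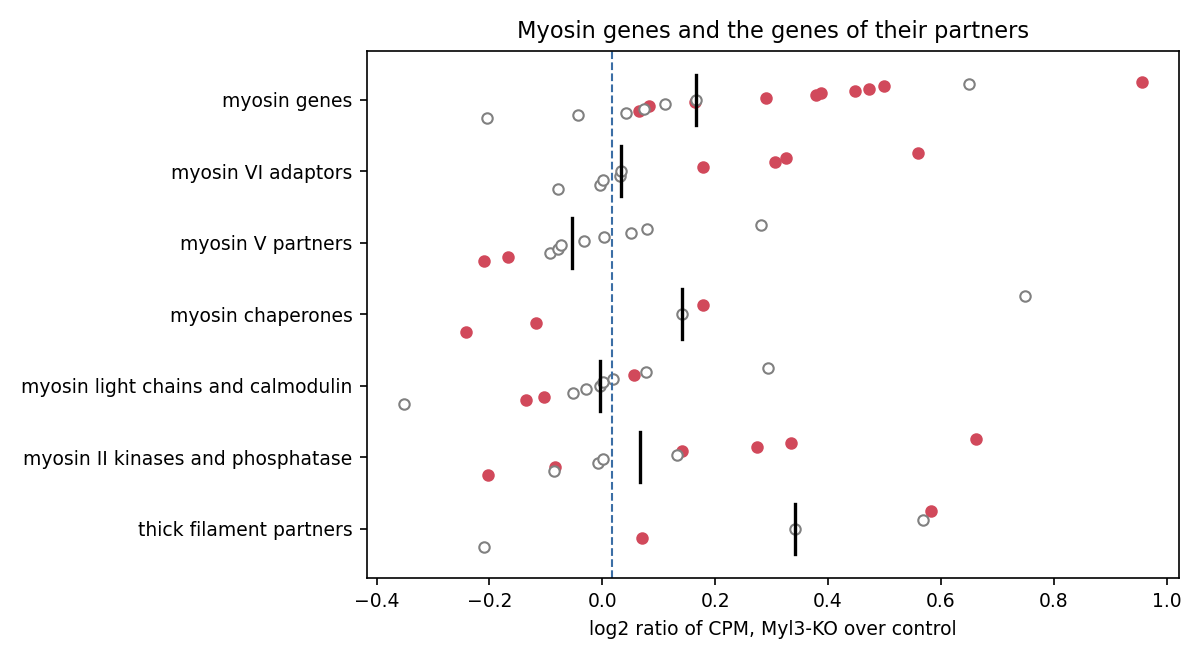
Log2 ratio of CPM, *Myl3*-KO over control, of the genes tested among the myosins and in 6 lists of partners, filled in red where the adjusted p was under 0.05, with black bars at the median of each list and a dashed line at the median of all genes tested. The medians run from -0.05 for myosin V partners to 0.34 for the 5 tested thick filament partners, with 0.17 for the myosins.

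Of 12 genes listed as regulators of myosin II, mostly kinases and phosphatase subunits, 10 were tested, 4 were higher and 2 lower (18.6% and 16.8% of all genes), with a median log2 ratio of 0.07. *Mylk*, the myosin light chain kinase, was past both limits with 16.2 and 25.6 CPM (log2 ratio 0.66). *Ppp1cb*, the catalytic subunit of myosin phosphatase, had 334 and 290 CPM (log2 ratio -0.20), *Rhoa* 337 and 318 CPM (-0.08) and *Ppp1r12a* 219 and 220 CPM (0.00). Of 6 chaperones of myosin folding 5 were tested, 1 was higher and 2 lower (18.6% and 16.8% of all genes), with a median of 0.14. *Hsp90ab1* had 2536 and 2868 CPM (log2 ratio 0.18), *Hsp90aa1* 1096 and 928 CPM (-0.24), *Cdc37* 276 and 255 CPM (-0.12) and *Unc45a*, which folds the motor head of non-muscle myosins, 41.2 and 45.5 CPM (0.14, adjusted p = 0.16 in the exact binomial test). The partners thus did not move in 1 direction. Of 12 partners of the filament 5 were tested, 2 were higher, *Svil* (51.6 and 77.2 CPM, log2 ratio 0.58), which encodes the membrane linker supervillin, and *S100a4* (1506 and 1582 CPM, 0.07), and 0 were lower (18.6% and 16.8% of all genes). *Mybpc1*, *Mybpc2*, *Mybpc3*, *Mybph*, *Mybphl* and *Myom2* were at 0 in both libraries.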

How the data were processed

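RNA sequencing of 1 control and 1 *Myl3*-KO library was analysed. For each gene the authors deposited an expected count, without normalization, and an FPKM value given to 2 decimals, and no column was left unmapped (0). The submitters' processing notes name GRCm38 and mm10. The aligner, the counter and the strand used in counting are not given in the sources used here. The labels name a SMARTER kit, and the methods describe oligo bead enrichment. The column headed NC was read as control because the other is headed KO. The members and lists were chosen with earlier results of these data known.

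Rounding expected counts to whole numbers preceded the two-sided exact binomial test, in which the expected share of each library is its share of the summed totals, and the Clopper-Pearson intervals. Counts under 3 were raised to 3 in ratios, and a gene was tested where both libraries together had 10 counts or more, with Benjamini-Hochberg adjustment. The quasi-likelihood test of edgeR has no residual degrees of freedom here. Values of 1 tested member are left out of the text and of the named points of the plots, and it stays in the counts and medians except those of the pairs within a class. The other members are accounted for, those tested by their values. From each further list up to 4 genes are named, first those past both limits, then those of highest mean CPM, and others are said to be chosen for their values or named where few were counted. Columns of the authors' own comparisons were not used. Loci and transcripts are those of GENCODE M21 on GRCm38, which held 21881 of the identifiers, and need not be the annotation behind the counts. Promoters were taken from RefSeq, and those with unread bases were left out. The test was first checked on counts simulated with counting noise alone. That check holds no variation between cultures and does not speak to it. The test was run in scipy 1.17.1 under Python 3.11.15 (tables in pandas 2.3.3 and numpy 2.4.6, plots in matplotlib 3.10.9). TMM factors came from edgeR 4.0.16, size factors from DESeq2 1.42.0, both in R 4.3.3. Alternatives were TMM factors, DESeq2 size factors, other filters and fold limits, an added count, the FPKM ratio, preset coefficients of variation and, chosen after seeing the data, a subtraction for length and GC content and a minimum of 100 counts.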

Additional observations from a re-analysis of the deposited data

How the results depend on the processing

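With 1 library per genotype no library could be left out. Depth sets the counting error alone, and the variation between cultures could not be estimated. No paired analysis was possible because each genotype has 1 library. TMM factors, DESeq2 size factors, 1 count added and the FPKM ratio kept the direction of all 17 members tested. The main calls were 1 member higher and 0 lower, and 390 genes higher and 115 lower. With edgeR's exact test and a preset coefficient of variation of 0.1 between libraries, 0 members were called, and 41 genes were higher and 20 lower. At 0.2 these were 0 members, 3 genes and 1 gene, and at 0.4 they were 0, 1 and 0. At 0.1, 3 members had an unadjusted p under 0.05 in edgeR's exact test, *Myo1e*, *Myo6* and *Myo7a*. With no limit on the fold, 0 members had an adjusted p under 0.05 in that test, and the lowest was 0.45. With no limit on the fold 10 members were higher, and 2307 genes were higher and 2090 lower. A limit of 2-fold gave 0 members, 143 genes and 49 genes, and a limit of 4-fold gave 0, 31 and 5.

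The median log2 ratio of the members, 0.17, was 0.38 with no filter on low counts, over 29 members. By construction, genes under 3 counts in both libraries are raised to the same count there, and their ratio is then that of the library totals. Subtracting the median of genes of like length and GC content, chosen after seeing the data, gave 0.052, and turned the ratio of *Myo9b* to -0.045, of *Myo1c* to -0.097 and of *Myh10* to -0.12, and those of *Myo10* and *Myo19*, which had not passed the test, to -0.20 and -0.023. The share of *Myh9* among the non-muscle genes was 56.2% and 61.5% by FPKM, which divides by gene length.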
